A study of Ovis aries with 9 samples.

Results

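The 31 genes described here act in cholesterol synthesis (19 genes), in control of the transcription factor SREBP2 (4 genes), in sterol uptake and handling inside the cell (6 genes) and in sterol export (2 genes). They were taken by name from a count table of 28837 genes. Of the 31, 30 had a row, CYP51A1 was not analysed here, and EBP, a sterol isomerase of late synthesis, was listed at 0 reads in every stage. The remaining 29 passed the filter on low counts. Other well-known genes of the pathway lie outside this list, so the list does not cover sterol synthesis, uptake or export in full.

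Single hepatocytes of female sheep (Ovis aries) were sequenced by Smart-seq3xpress, a plate method that reads whole transcripts cell by cell. Livers of slaughtered animals were digested with collagenase and each cell was picked by hand under a microscope. The 9 samples were a virgin stage, 6 gestation stages (days 40 to 50, 50 to 70, 70 to 80, 90 to 100, 100 to 120 and 140 to 150) and days 7 and 15 after birth with lactation, with no treatment or genotype named for any of them. Neither breed, age nor the number of animals per stage was given, so each stage was 1 library made of its summed cells, and p-values measure only the spread between stages.

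A stage held 246 to 553 of the 3404 cells and 114865665 to 272944124 reads on named genes. Levels are given as CPM, a gene's reads scaled to a common library total with TMM factors. CPM is thus a relative level among the reads of a stage, not corrected for gene length, and not an amount per cell. At these depths counting error was small: NPC1, lowest per length of the members with reads, stood at 1.29 CPM at days 140 to 150 with an exact 95% Poisson interval of 1.14 to 1.46. Such intervals cover counting error only, since reads copied by PCR are not independent molecules. The hepatocyte markers summed to 69727 to 181815 CPM, of which ALB alone gave 32003 to 113348, and APOA2 was the 1 of 8 hepatocyte markers at 0 reads. Markers of 7 other cell types together came to 48.1 to 335 CPM, highest at day 7 of lactation, where red cell genes made up 224 CPM.

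Cholesterol is built from acetyl-CoA by the mevalonate pathway, then through squalene and lanosterol. When sterol in the endoplasmic reticulum is low, SCAP carries SREBP2 to the Golgi for cleavage and the freed factor switches on the synthesis genes, whereas the INSIG proteins hold SCAP back when sterol is plentiful. The liver also takes up lipoprotein sterol through receptors such as SCARB1, frees it from lysosomes through NPC2 and NPC1, stores it as esters made by SOAT2, and passes it into bile through the ABCG5 and ABCG8 pair. In most mammals the mother's liver also supplies lipids to the circulation during pregnancy and milk production.

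The question was whether the uptake and export genes follow the synthesis genes over gestation. The synthesis sum was lowest near term and the export sum was not: between days 40 to 50 and days 140 to 150 the summed level of synthesis went from 6862 to 2527 CPM, a ratio of 0.368, whereas that of export went from 63.2 to 67.9 CPM, a ratio of 1.07. Uptake and handling lay between them, going from 295 to 216 CPM, a ratio of 0.733, and the SREBP2 control genes went from 528 to 484 CPM, a ratio of 0.918. Per kilobase of gene length, which gives short genes more weight, the ratios were 0.400 for synthesis, 0.430 for SREBP2 control, 0.687 for uptake and handling and 1.07 for export, so the place of SREBP2 control depends on the scale. At the stages in between, synthesis stood at 80.6%, 69.8%, 48.5% and 71.4% of days 40 to 50 in order. Export stood at 90.6%, 65.2%, 83.0% and 89.0%, and uptake and handling at 94.5%, 89.1%, 97.1% and 83.3%. SREBP2 control stood at 85.9%, 89.8%, 89.3% and 112%. The export sum was thus lower at each stage up to days 70 to 80, as synthesis was, and higher at each stage after. ABCG8 carried most of the export sum, with a mean over the 9 stages of 38.6 CPM against 8.25 CPM for ABCG5. The ratio of days 140 to 150 to days 40 to 50 was 1.15 for ABCG8 and 0.777 for ABCG5. ABCG5 was also not higher at days 100 to 120 than at days 90 to 100. Relative to the synthesis sum, uptake and handling moved from 0.0430 at days 40 to 50 to 0.0857 at days 140 to 150, and export from 0.00921 to 0.0269. These sums have 1 library on each side and no test, and the slopes of the role groups were not tested against each other.

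**Figure D1:**
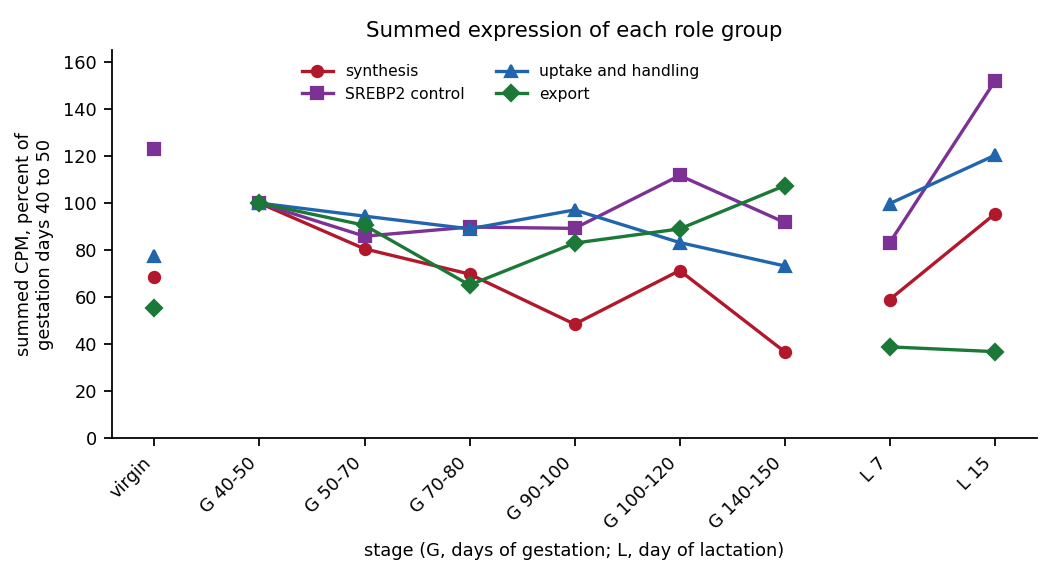
Summed CPM of each role group by stage, as a percent of the value at gestation days 40 to 50, with 1 point per stage library and lines joining the 6 gestation and the 2 lactation stages. Synthesis reached 36.8% at days 140 to 150 while export stood at 107%, and in lactation export stood at 38.9% and 36.9% while synthesis stood at 59.0% and 95.4%.

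Each gene was then fitted over the 6 gestation stages with edgeR's quasi-likelihood test, as a log2 slope per 100 days of gestation. The slope was negative in 16 of 17 synthesis genes, with a median of -1.78, and PMVK, at 0.48, was the exception. Over all 17848 genes tested the median slope was 0.01 and 48.9% of slopes were negative. All 6 uptake and handling genes also had negative slopes, with a median of -0.59. The SREBP2 control genes split into 2 negative and 2 positive slopes with a median of -0.31, and the export pair into 1 and 1 with a median of 0.01.

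No member passed an adjusted p of 0.05 in edgeR, where 6 genes in all, 0.0336% of those tested, did. At an unadjusted p under 0.05 the slope was negative in 12 of 17 synthesis genes, 1 of 4 SREBP2 control genes (SREBF2), 2 of 6 uptake and handling genes (STARD4 and NPC1) and neither export gene, against 3.41% of all genes. It was positive at that level in 1 member, INSIG2, against 3.2% of all genes. DESeq2's Wald test called 13 members at an adjusted p under 0.05, all with a negative slope, namely the same 12 synthesis genes and STARD4, against 0.968% of all genes called in that direction. With equal weight per cell, limma called 5 (FDFT1, FDPS, HMGCS1, SQLE and TM7SF2), all with a negative slope, against 0.0616% of all genes in that direction. Of the members, edgeR with no filter on low counts called SQLE (0.0327% of all genes with a negative slope), and edgeR without the days 100 to 120 library called TM7SF2 (0.00577%).

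**Figure D2:**
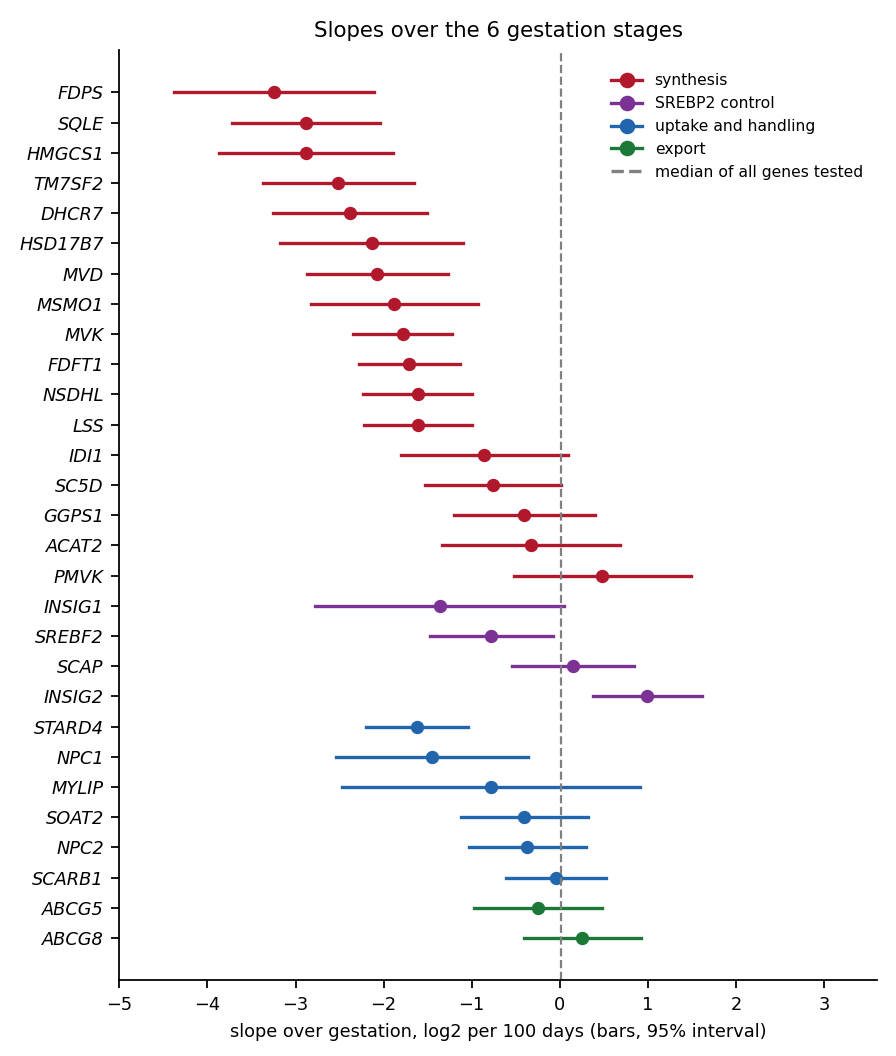
Slope of each of the 29 members over the 6 gestation stages, in log2 per 100 days, with 95% intervals from the edgeR fit and the median of all genes tested as a dashed line. The synthesis slopes run from -3.25 for FDPS to 0.48 for PMVK, and the intervals of SCARB1, ABCG5 and ABCG8 hold 0.

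Among the first steps of synthesis, HMGCS1, the cytosolic HMG-CoA synthase, stood at 656, 586, 413, 172, 263 and 88.7 CPM over the 6 gestation stages in order. Its virgin level was 377 CPM, and it stood at 276 and 686 CPM on days 7 and 15 of lactation. The lowest library was days 140 to 150 and the highest was day 15 of lactation, a 7.74-fold span, and the slope over gestation was -2.88 (SE 0.43, edgeR adjusted p = 0.0923). MVK, mevalonate kinase, stood at 72.7, 67.5, 58.2, 43.1, 40.0 and 21.1 CPM over gestation, 58.5 CPM in the virgin sample and 37.4 and 57.1 CPM in lactation. Its level was lower at each gestation stage than at the one before, with a slope of -1.78 (SE 0.24, edgeR adjusted p = 0.0804).

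FDPS, which makes farnesyl diphosphate, had the widest span of all members. It stood at 87.8, 88.9, 63.9, 29.8, 38.8 and 8.87 CPM over gestation, 85.0 CPM in the virgin sample and 60.8 and 138 CPM in lactation. The days 140 to 150 library was 9.89-fold below days 40 to 50 and 15.6-fold below day 15 of lactation. The slope was -3.25 (95% interval -4.38 to -2.11, edgeR adjusted p = 0.0969).

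FDFT1, squalene synthase, which commits the pathway to sterols, stood at 230.5, 176, 127, 99.2, 98.4 and 68.0 CPM over gestation. Its virgin level was 117 CPM and its lactation levels were 114 and 167 CPM, so that days 140 to 150 was the lowest library. SQLE, squalene epoxidase, a rate-limiting step of the sterol branch, stood at 274, 252, 168, 81.8, 106 and 37.5 CPM over gestation, 151 CPM in the virgin sample and 143 and 328 CPM in lactation. Its slope of -2.88 (95% interval -3.73 to -2.04, edgeR adjusted p = 0.0804) had the smallest p of any member, the 10th smallest of all genes tested. The slope of FDFT1 was -1.71 (SE 0.25, edgeR adjusted p = 0.0901).

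Of the late enzymes that turn lanosterol into cholesterol, TM7SF2, a sterol reductase, stood at 222, 159.7, 119, 96.4, 101 and 30.6 CPM over gestation. Its virgin level was 126 CPM and its lactation levels 113 and 184 CPM, and its slope was -2.51 (SE 0.37, edgeR adjusted p = 0.0923). DHCR7, which makes cholesterol from 7-dehydrocholesterol, stood at 189.9, 160.3, 137, 74.3, 98.3 and 32.8 CPM over gestation, 173 CPM in the virgin sample and 152 and 193 CPM in lactation. NSDHL, which takes part in removing the methyl groups of lanosterol, stood at 179, 188, 159, 111, 112 and 61.8 CPM, with 177 CPM in the virgin sample and 114 and 171 CPM in lactation. In all 3 genes days 140 to 150 was the lowest of the 9 libraries. The slopes of DHCR7 and NSDHL were -2.38 and -1.61 (edgeR adjusted p = 0.106 and 0.118).

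The other 9 synthesis genes with reads had slopes from -2.14 for HSD17B7, a sterol ketone reductase, to 0.48 for PMVK, phosphomevalonate kinase, with edgeR adjusted p from 0.118 to 0.986. MVD, HSD17B7, MSMO1 and LSS had slopes of -1.61 or below, and IDI1, SC5D, GGPS1 and ACAT2 had slopes between -0.86 and -0.32 whose 95% intervals hold 0. PMVK stood at 53.3, 27.9, 36.1, 43.7, 68.4 and 50.9 CPM over gestation, with its lowest gestation level at days 50 to 70 and its highest at days 100 to 120. With 1 gestation library left out, the slope of PMVK ran from 0.21 without days 50 to 70 to 1.19 without days 40 to 50, and that of SC5D, -0.76 with all 6, from -0.99 without days 40 to 50 to -0.18 without days 140 to 150.

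ACAT2, the cytosolic acetoacetyl-CoA thiolase, carried much of the synthesis sum. It stood at 1792, 1004, 1037, 994, 1660.0 and 1028 CPM over gestation, with days 40 to 50 and days 100 to 120 high and the other 4 near each other. Its slope of -0.32 became 0.28 without the days 40 to 50 library. Without ACAT2 the ratio of the synthesis sum at days 140 to 150 to that at days 40 to 50 was 0.296, and without ACAT2 and MSMO1, the methylsterol monooxygenase, it was 0.321. Per kilobase of the deposited gene length, mean levels over the 9 stages were highest in ACAT2 (796 CPM per kb) and MSMO1 (544 CPM per kb) and, among synthesis genes with reads, lowest in GGPS1 (1.29 CPM per kb), which makes geranylgeranyl diphosphate for a side branch.

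Most synthesis genes shared their lowest gestation stage and the direction of several steps between stages, which the slope alone does not show. The lowest gestation level was at days 140 to 150 in 14 of 17 (14.1% of all genes), the exceptions being ACAT2, PMVK and IDI1. It was also there in 4 of 6 uptake and handling genes, 2 of 4 SREBP2 control genes and 0 of 2 export genes. From days 90 to 100 to days 100 to 120 the level was higher in 13 of 17 synthesis genes (46.7% of all genes). The synthesis sum went from 3331 to 4896 CPM, and without ACAT2 from 2337 to 3236 CPM. This step was upward in 1 of 6 uptake and handling genes, 4 of 4 SREBP2 control genes and 1 of 2 export genes. All 17 synthesis genes were higher at days 40 to 50 than in the virgin sample (45.1% of all genes), and the sum was 1.46-fold higher. In the other groups 6 of 6 uptake and handling genes, 3 of 4 SREBP2 control genes and 2 of 2 export genes were higher there too.

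After birth, 14 of 17 synthesis genes were higher at day 7 of lactation than at days 140 to 150 (47.8% of all genes). So were 6 of 6 uptake and handling genes, 3 of 4 SREBP2 control genes and 0 of 2 export genes. All 17 synthesis genes were higher at day 15 than at day 7 (50.9% of all genes). At least 2-fold higher at day 15 than at days 140 to 150 on the log2(CPM + 1) scale were 14 of 17 (2.89% of all genes). For uptake and handling these counts were 5 of 6 and 2 of 6, for SREBP2 control 3 of 4 and 1 of 4, and for export 1 of 2 and 0 of 2. The synthesis sum stood at 2527, 4051 and 6544 CPM at these 3 stages, so day 15 was 2.59-fold above days 140 to 150 and close to the 6862 CPM of days 40 to 50. Which of day 15 and days 40 to 50 was higher depends on the measure. With library size as the only scaling they stood at 7236 and 6393 CPM, and without ACAT2 at 5364 and 5069 CPM. Each such step has 1 library on each side and was not tested.

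**Figure D3:**
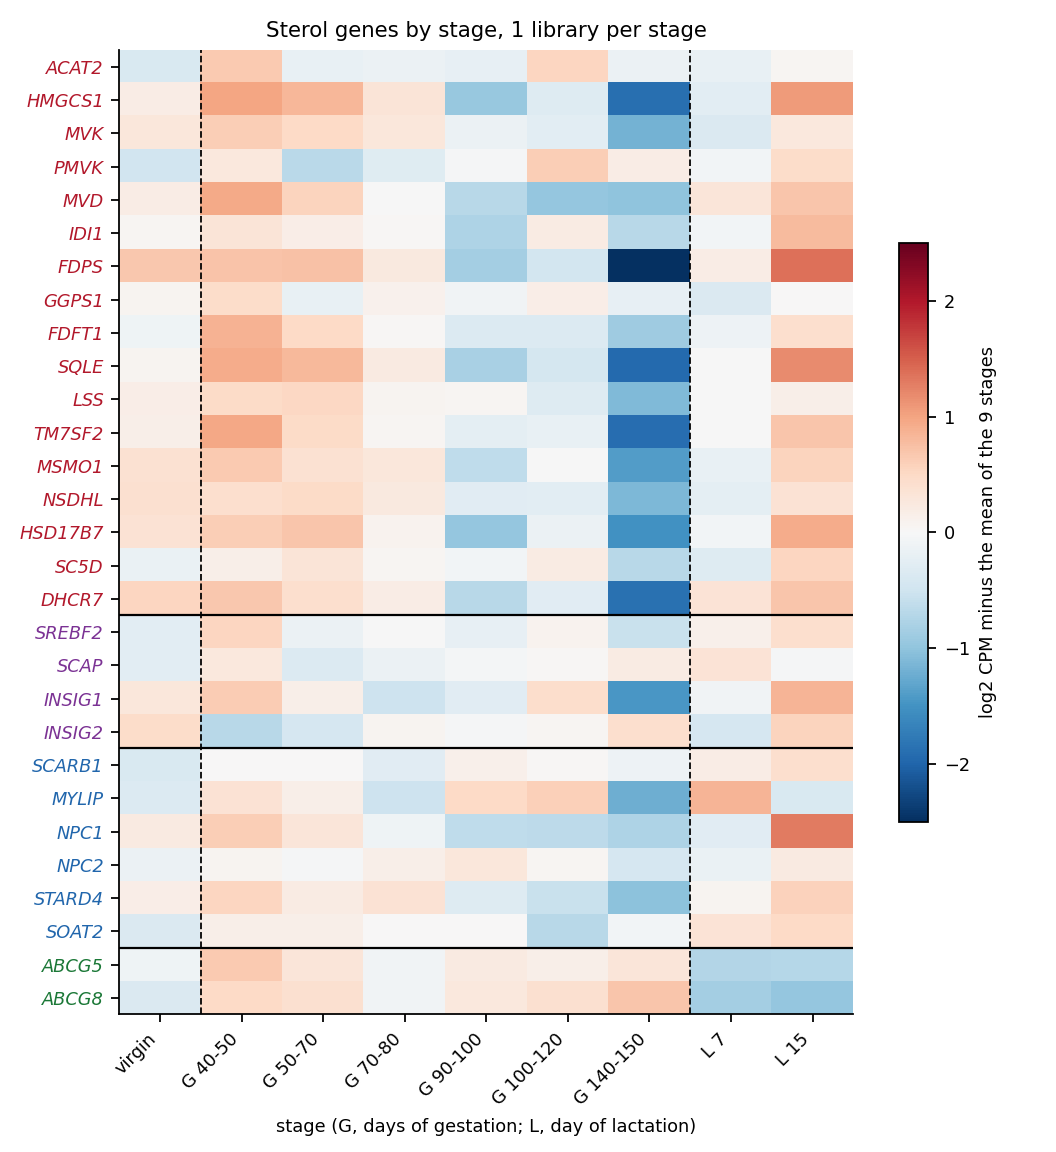
Log2 CPM of each of the 29 members with reads in each of the 9 stage libraries, minus that gene's mean over the 9, with rows grouped by role (names in red for synthesis, purple for SREBP2 control, blue for uptake and handling, green for export). Days 140 to 150 is the lowest gestation stage in 14 of 17 synthesis genes, and the export pair is low in both lactation libraries.

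The summed markers of the lobule's pericentral hepatocytes also stood low near term. Their sum (7 of 7 markers detected) was 8000 CPM at days 140 to 150 against 13388 to 16218 CPM at the other 5 gestation stages. In lactation it was 7649 CPM at day 7 and 13008 CPM at day 15. CYP2E1 alone gave 5572 to 10388 CPM over the 9 stages, so the sum rests largely on 1 gene. Of the 7, 5 had a negative slope over gestation, edgeR called 0 and DESeq2 1 in each direction. Over all genes 48.9% of slopes were negative, and DESeq2 called 303 of 17848 genes in both directions together. Periportal markers summed to 8632 to 11063 CPM over gestation, and to 5727 and 6369 CPM on days 7 and 15 of lactation. Across cells within a stage, Spearman's rho between the synthesis sum without ACAT2 and the pericentral sum was positive in 9 of 9 stages (0.06 to 0.58), and that with the periportal sum was positive in 2 of 9 (-0.38 to 0.04). The part of these markers in the synthesis levels was not tested.

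The lower synthesis level near term was seen across the cells and not in a few of them. Each cell was thinned to 155164 reads, which kept 3063 cells and left out 341 shallower ones (13 to 58 per stage). The median synthesis sum per cell was 6187 CPM at days 40 to 50 and 2397 CPM at days 140 to 150 (6235 and 2376 CPM without thinning). Of 437 cells at days 140 to 150, 437 lay below the median cell of days 40 to 50 (100%, exact 95% interval 99.2 to 100%). The share was 75.4%, 74.6%, 99.2% and 89.7% at the gestation stages in between, in order. It was 82.3% in the virgin sample and 83.6% at day 7 of lactation. At day 15 of lactation 39.4% of 495 cells lay below that median (35.1 to 43.9%). FDPS had a read in 90.9% of cells at days 40 to 50, 44.4% at days 140 to 150 and 99.6% at day 15 of lactation (94.8%, 54.7% and 99.6% without thinning). Cells of a stage are not replicates. These intervals treat cells as independent draws and hold the median of days 40 to 50 fixed, so they do not cover the spread between animals or stages.

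**Figure D4:**
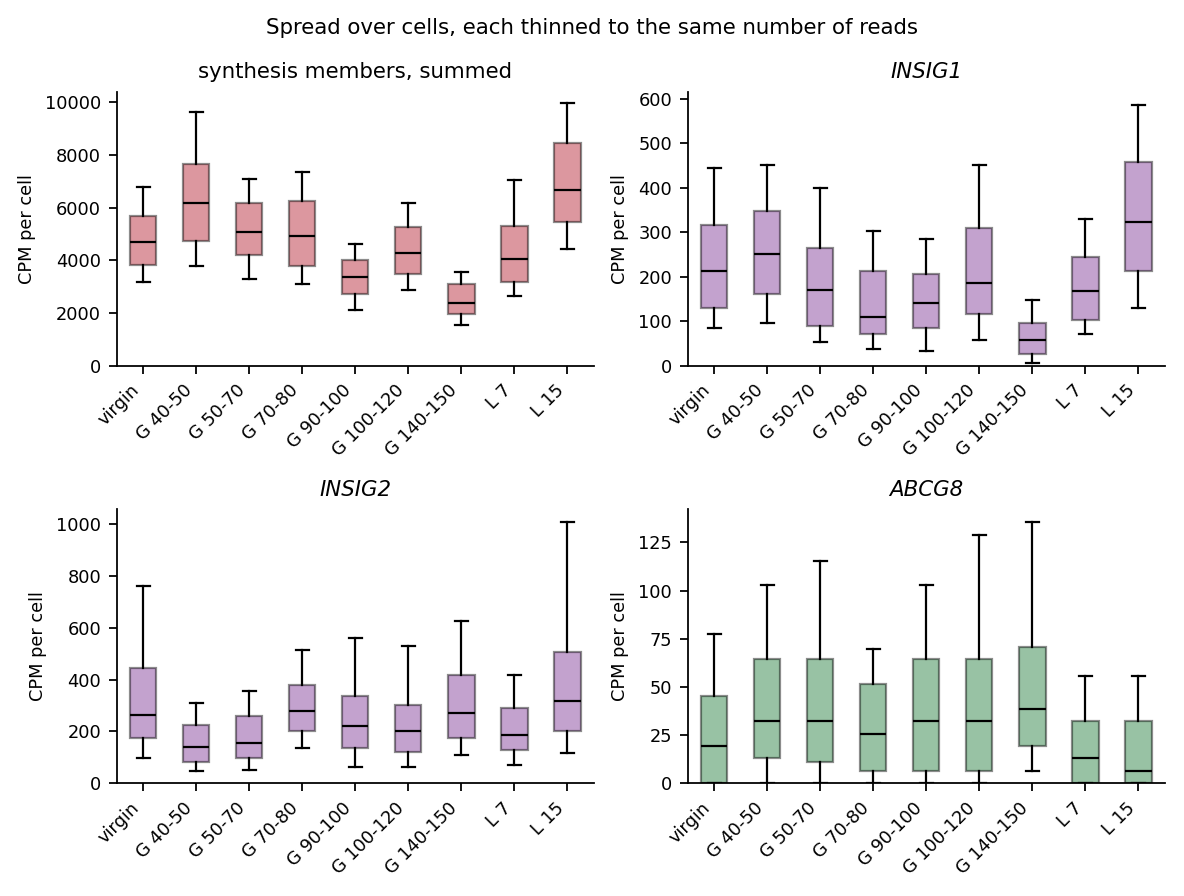
Spread over cells of the synthesis sum, INSIG1, INSIG2 and ABCG8 in CPM per cell, by stage, with each cell thinned to 155164 reads (line, median; box, quartiles; whiskers, 10th and 90th percentiles). The median of the synthesis sum is 6187 CPM at days 40 to 50 and 2397 CPM at days 140 to 150, that of INSIG1 251 and 58.0 CPM, that of INSIG2 142 and 271 CPM, and that of ABCG8 32.2 and 38.7 CPM.

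The SREBP2 control genes did not share 1 course over gestation. INSIG1 and INSIG2 encode the paired retention proteins that keep SCAP in the endoplasmic reticulum, INSIG1 being itself a target of SREBP2. INSIG1 stood at 278, 197, 125, 147, 243 and 64.8 CPM over gestation, 219 CPM in the virgin sample and 167 and 321 CPM in lactation. It was lowest at days 140 to 150 and highest at day 15 of lactation, with a slope of -1.36 (95% interval -2.78 to 0.05, edgeR adjusted p = 0.778). Leaving out 1 gestation library at a time gave slopes from -1.94 without days 100 to 120 to -0.41 without days 140 to 150.

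INSIG2 ran the other way, at 173, 208, 295, 275, 289 and 376 CPM over gestation. The virgin level was 385 CPM and the lactation levels 209 and 411 CPM, so days 40 to 50 was the lowest library and days 140 to 150 the highest of gestation. Its slope was 0.99 (95% interval 0.37 to 1.61, edgeR adjusted p = 0.404), and 0.80 to 1.11 with 1 gestation library left out. At day 15 of lactation both INSIG genes were high. The sum of the control genes was 528 CPM at days 40 to 50 and 484 CPM at days 140 to 150, with its highest gestation value, 590 CPM, at days 100 to 120. At days 140 to 150 it thus held a lower INSIG1 and a higher INSIG2 than at days 40 to 50. Per kilobase the same sum went from 123 to 52.9 CPM per kb between these stages.

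Within each stage, cells with a higher synthesis sum (without ACAT2) had more INSIG1, with Spearman's rho of 0.35 to 0.60 in the 9 stages (213 to 495 cells each). For INSIG2 rho ran from -0.23 to 0.26 and was positive in 6 of 9. Both measures come from the same thinned cell library, and the values are descriptions with no test. In 97.7% of 437 cells at days 140 to 150 INSIG1 lay below the median cell of days 40 to 50, and in 17.2% INSIG2 did.

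SREBF2, which encodes SREBP2 itself, stood at 62.3, 38.9, 42.7, 37.0, 45.6 and 29.3 CPM over gestation, 35.6 CPM in the virgin sample and 47.2 and 57.6 CPM in lactation. Days 40 to 50 was the high library and days 140 to 150 the low one, with a slope of -0.78 (edgeR adjusted p = 0.714) that became -0.44 without days 40 to 50. SCAP, the escort of SREBP2, stood at 14.5, 9.56, 10.9, 11.7, 12.3 and 14.0 CPM over gestation, 10.0 CPM in the virgin sample and 15.4 and 11.8 CPM in lactation. Its libraries overlapped between phases, and the slope of 0.15 became -0.13 without days 140 to 150.

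Among the uptake and handling genes STARD4 came closest to the synthesis genes. STARD4 encodes a carrier that moves cholesterol between membranes. It stood at 51.6, 41.1, 45.4, 28.3, 24.3 and 17.5 CPM over gestation, 39.9 CPM in the virgin sample and 37.3 and 52.6 CPM in lactation. The last 3 gestation libraries lay below the first 3, with a slope of -1.62 (95% interval -2.20 to -1.04, edgeR adjusted p = 0.102). In 85.1% of cells at days 140 to 150 it lay below the median cell of days 40 to 50.

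NPC1 and NPC2 hand cholesterol out of the lysosome. NPC1, the membrane partner, stood at 3.41, 2.72, 2.04, 1.43, 1.41 and 1.29 CPM over gestation, 2.59 CPM in the virgin sample and 1.83 and 5.44 CPM in lactation. It was highest at day 15 of lactation and its slope was -1.45 (edgeR adjusted p = 0.578). NPC2, the soluble partner, stood at 70.5, 65.4, 74.2, 81.3, 69.5 and 50.1 CPM over gestation, 60.8 CPM in the virgin sample and 59.8 and 79.0 CPM in lactation. Its slope of -0.37 (edgeR adjusted p = 0.957) became 0.17 without days 140 to 150. NPC2 is also made by macrophages, whose 9 markers (CD68 at 0 reads) summed to 13.0 to 55.6 CPM. That sum and NPC2 were both highest at days 90 to 100. On days 7 and 15 of lactation the sum was 49.3 and 13.0 CPM, where NPC2 stood at 59.8 and 79.0 CPM. The part of macrophages in the NPC2 levels was not tested.

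SCARB1, the receptor that takes sterol esters from high-density lipoprotein, was level over gestation. It stood at 109.7, 110.5, 89.7, 119, 112 and 99.9 CPM there, 84.5 CPM in the virgin sample and 125 and 147 CPM in lactation. Its slope was -0.04 (95% interval -0.61 to 0.52), became 0.12 without days 140 to 150, and the interval leaves out slopes as steep as those of the 12 synthesis genes at -1.61 or below. At days 140 to 150, 50.8% of cells lay below the median cell of days 40 to 50. SOAT2, which esterifies cholesterol for storage and secretion, stood at 52.0, 52.2, 47.3, 47.5, 29.2 and 44.96 CPM over gestation, 36.7 CPM in the virgin sample and 59.4 and 66.7 CPM in lactation, with 1 low library at days 100 to 120 and a slope of -0.40 (edgeR adjusted p = 0.956). That slope became -0.22 without days 100 to 120 and -1.05 without days 140 to 150.

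MYLIP, a ubiquitin ligase that marks lipoprotein receptors for breakdown and so acts against uptake, was counted in this group by its pathway. It stood at 8.19, 7.06, 4.45, 9.06, 9.66 and 2.73 CPM over gestation, 5.03 CPM in the virgin sample and 11.5 and 4.87 CPM in lactation. Its slope of -0.78 (SE 0.73) became 0.55 without days 140 to 150. Without MYLIP and STARD4 the ratio of the uptake and handling sum at days 140 to 150 to that at days 40 to 50 was 0.833.

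The export pair separated gestation from lactation and not early from late gestation. ABCG5 and ABCG8 are half-transporters that work only as a pair, at the face of the hepatocyte that borders the bile canaliculus. ABCG8 stood at 50.7, 47.5, 33.7, 43.3, 47.5 and 58.2 CPM over gestation, 27.8 CPM in the virgin sample and 19.8 and 18.5 CPM in lactation. ABCG5 stood at 12.5, 9.74, 7.46, 9.18, 8.73 and 9.71 CPM over gestation, 7.28 CPM in the virgin sample and 4.77 and 4.85 CPM in lactation. All 6 gestation libraries lay above both lactation libraries in both genes, as in 4.86% of all genes.

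The gestation means were 46.8 ± 8.11 CPM for ABCG8 and 9.55 ± 1.67 CPM for ABCG5 (SD, n = 6 stages), and the lactation means were 19.1 ± 0.957 and 4.81 ± 0.0521 CPM (SD, n = 2 stages). The gestation mean of ABCG8 was 2.45-fold the lactation mean, with a fitted log2 difference of 1.29 (95% interval 0.81 to 1.77, edgeR adjusted p = 0.0888), and that of ABCG5 was 1.99-fold, with a fitted log2 difference of 0.99 (95% interval 0.49 to 1.49, edgeR adjusted p = 0.169). DESeq2 called both genes higher in gestation, as it did 2% of all genes. The slopes within gestation were 0.26 (95% interval -0.41 to 0.92) for ABCG8, which became -0.17 without days 140 to 150, and -0.24 (95% interval -0.97 to 0.48) for ABCG5, which became 0.13 without days 40 to 50. Across cells within a stage, rho between ABCG8 and the synthesis sum without ACAT2 was positive in 2 of 9 stages (-0.33 to 0.09).

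The steps from late gestation into lactation ran in opposite directions for synthesis and export. From days 140 to 150 to day 7 the synthesis sum was 1.60-fold higher and the export sum was 0.362 of its former value, and at day 15 they were 2.59-fold higher and 0.343. The hepatocyte markers were also lower in lactation, at 92747 and 69727 CPM against 144214 to 181815 CPM over gestation, and their part in the export levels was not tested. Lying next to each other, ABCG5 and ABCG8 also overlap in the RefSeq annotation, and the counting was not stated to use strand, so reads of one could be counted for the other.

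In the fit of the 3 phases over all 9 stages, edgeR called no member in any contrast at an adjusted p under 0.05. Between gestation and lactation it called 0.0592% of 20263 genes. At an unadjusted p under 0.05, 2 of 29 members were higher in gestation (ABCG5 and ABCG8), against 4.39% of all genes, and 1 lower (SOAT2), against 5.01%. These counts lie near the background. DESeq2 called 2 and limma 0. SCARB1 and SOAT2 were lower at all 6 gestation stages than at both lactation stages, as were 6.14% of all genes, with edgeR adjusted p = 0.542 and 0.53. No synthesis or SREBP2 control gene kept its gestation and lactation libraries apart.

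Between gestation and virgin edgeR called 0.00494% of genes and between lactation and virgin 0%. At an unadjusted p under 0.05, 1 of 29 members was higher in gestation than in virgin (ABCG8, log2 0.75), against 2.3% of all genes, and 2 of 29 were higher in lactation than in virgin (SCARB1, log2 0.68, and SOAT2, log2 0.78), against 2.5%. Neither DESeq2 nor limma called a member in either contrast. The virgin stage is 1 library and is taken to vary like the others, and the contrasts share libraries with each other and with the slopes.

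Other genes of sterol and lipid supply were read from 3 lists. Among 11 genes of fatty acid synthesis, which SREBP1 controls, 11 had negative slopes (median -2.72), against 48.9% of all genes. Of the 11, 10 were at an unadjusted p under 0.05, against 3.41% of all genes in that direction. From this list edgeR called 1 (0.0336% of all genes), DESeq2 8 (0.968% with a negative slope) and limma 4 (0.0616% with a negative slope). The gene called by edgeR, ACSS2, which makes acetyl-CoA from acetate, stood at 91.1, 77.6, 67.5, 34.2, 26.8 and 15.8 CPM over gestation. It fell with a slope of -2.72 (SE 0.27, edgeR adjusted p = 0.0307). Leaving out 1 gestation library kept its slope between -2.90 and -2.64, with edgeR adjusted p from 0.0274 without days 70 to 80 to 0.325 without days 140 to 150, and only the former was under 0.05. SCD, the stearoyl-CoA desaturase, went from 37.8 to 1.84 CPM, with a slope of -4.48 (edgeR adjusted p = 0.064). The summed level of this list at days 140 to 150 was 0.262 of that at days 40 to 50, against 0.368 for sterol synthesis, and per kilobase the ratios were 0.156 and 0.400. Its stage to stage course differed at days 100 to 120, where the fatty acid sum was 0.732 of that at days 90 to 100 and the sterol synthesis sum was 1.47-fold higher. Without ACAT2 the sterol synthesis sum was 1.38-fold higher. Across cells, rho between the 2 sums (sterol synthesis without ACAT2) was -0.12 and -0.08 at these 2 stages and 0.29 to 0.81 at the other 7.

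Of 9 genes of SREBP processing and sterol sensing, 7 had negative and 2 positive slopes (median -0.15). At an unadjusted p under 0.05, 1 was negative and 1 positive, against 3.41% and 3.2% of all genes. Here edgeR and limma called 0 and DESeq2 1, SREBF1, with a negative slope (0.968% of all genes in that direction). SREBF1, which encodes SREBP1, stood at 14.6, 16.4, 11.9, 9.45, 8.76 and 5.99 CPM over gestation with a slope of -1.44 (edgeR adjusted p = 0.193). ERLIN1, of the complex that helps degrade sterol-regulated proteins, went from 42.2 to 62.0 CPM with a slope of 0.55 (edgeR adjusted p = 0.739).

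Of 18 further genes of uptake, handling and export that were tested, 10 had negative and 8 positive slopes (median -0.16). At an unadjusted p under 0.05, 3 were negative and 0 positive, against 3.41% and 3.2% of all genes. In this list edgeR and limma called 0 and DESeq2 2, TMEM97 and LIPA, both with a negative slope (0.968% of all genes in that direction). TMEM97, which binds NPC1, went from 151 to 66.4 CPM with a slope of -1.30 (edgeR adjusted p = 0.303), and LIPA, the lysosomal lipase that frees cholesterol from its esters, from 95.2 to 51.6 CPM with a slope of -1.05 (edgeR adjusted p = 0.38).

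In the RefSeq annotation the spans of 15 of the 30 members overlap another gene, among them ACAT2 with TCP1, FDFT1 with CTSB, IDI1 with WDR37 and NSDHL with CETN2. Since the counting was not stated to use strand, levels of these members are uncertain by what their partners contribute.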

How the data were processed

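The deposited values were raw read counts (whole numbers) for each gene in each cell. The submitters' processing notes name featureCounts 2.0.1, HISAT2 2.1.0 and Trimmomatic 0.39, so these are credited to the authors. Genome build, strand setting and use of molecular identifiers are not given in the sources used here. Gene length in bases came from a deposited column of the same table, with its making not stated. The 24 rows with no gene name, 0.474% of reads, were left out. Gene names and overlaps were looked up in the RefSeq table of assembly ARS-UI_Ramb_v3.0.

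The cells of a stage were summed and the sums fitted across all genes with edgeR 4.0.16 in R 4.3.3 (filterByExpr, TMM, glmQLFit and glmQLFTest, Benjamini-Hochberg, threshold 0.05), with a slope over the 6 gestation stages on their midpoint days, and with a term per phase over all 9. DESeq2 1.42.0, limma 3.58.1 on log2(mean CPM per cell + 1), other scaling and filters, stages left out in turn, and leaving out 340 cells richest in 44 markers of other cell types were alternatives. Scripts were tested on simulated data. No 2 cells had identical counts, so none was dropped as a copy, and doublets were not called since cells were picked singly.

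Members and lists were chosen with earlier results of these data known. Values in every stage are given for all members of SREBP2 control, uptake and handling and export and for the 8 synthesis genes with the smallest p of the slope, and for the other lists 2 genes each by the same measure. A list of isoprenoid side branch genes is not reported here.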

Additional observations from a re-analysis of the deposited data

Results flagged for a closer look

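Among the 6 gestation stages, SOAT2 at days 100 to 120 lay far below the other 5, at 29.2 CPM against 44.96 to 52.2 CPM, with 0.685 of the whole range as the gap to its nearest neighbour (limit 0.625 for 6 samples). In all, 33 groups of 6 gestation values were examined in this way and this was the 1 found. Since chance gives about 1 in 20, 1 of 33 is no more than chance would give. In 71.8% of 340 thinned cells at that stage SOAT2 lay below the median cell of days 40 to 50, against 43.3% to 50.1% at the other 4 later stages. These cells make up the flagged library, so their share restates its level and is not separate support.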

How the results depend on the processing

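No paired analysis was possible because the labels give no replicate numbers and no animals, and counts per animal were not run for the same reason. The median slope of synthesis and of uptake and handling kept its sign in each alternative run. With 1 library left out, the median slopes were -1.86 to -1.46 for synthesis, -0.86 to -0.46 for uptake and handling, -0.47 to 0.084 for SREBP2 control and -0.42 to 0.34 for export. Members called in the slope numbered 0 in edgeR, 1 with no filter on low counts, 13 in DESeq2, 5 in limma, and 0 to 1 with 1 library left out. Between gestation and lactation they numbered 0 in edgeR and 2 in DESeq2.

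The ratio of summed CPM of days 140 to 150 to days 40 to 50 was, with library size as the only scaling, 0.385 for synthesis, 0.958 for SREBP2 control, 0.765 for uptake and handling and 1.12 for export. As a median over members on the log2(CPM + 1) scale, which pulls low genes towards 1, it was 0.298, 0.681, 0.610 and 0.953 in that order, and as a plain median of the members' ratios (added after seeing the data) 0.290, 0.718, 0.545 and 0.962. With equal weight per cell it was 0.389 for synthesis and 0.787 for uptake and handling. Without the cells richest in markers of other cell types (chosen after seeing the data, as were the sums without ACAT2) it was 0.366 for synthesis and 0.934 for SREBP2 control, and without ACAT2, or ACAT2 and MSMO1, the synthesis ratio was 0.296 and 0.321. Why values moved was not tested beyond what each alternative changes.

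For 36 chosen results of single members, each a slope or a phase difference, the alternatives gave 468 values. Of these, 436 kept their direction and their side of the threshold, 19 gained a call and 13 reversed. The slopes of MVD, LSS, HSD17B7 and GGPS1 were not among the 36, nor were most members in the phase contrasts. The calls of MVD, LSS and HSD17B7 by DESeq2 are thus not in these counts. No member was called to begin with, so none could lose a call. ACSS2, the 1 gene called beside them, lost its call with library size as the only scaling (edgeR adjusted p = 0.0614), by stage order (0.104), in late against early gestation (0.359) and with 5 of the 6 gestation libraries left out in turn. Slopes that reversed without days 140 to 150 ranged, with 1 library left out, over -0.13 to 0.60 (SCAP), -0.097 to 0.12 (SCARB1), -1.30 to 0.55 (MYLIP), -0.51 to 0.17 (NPC2) and -0.17 to 0.54 (ABCG8). Those that reversed without days 40 to 50 ranged over -0.66 to 0.13 (ABCG5) and -0.56 to 0.28 (ACAT2). In late against early gestation, SCARB1 was 0.16 and MYLIP 0.20. Without day 15 of lactation the log2 difference of gestation from lactation reversed for INSIG1 (leave-one-out range -0.87 to 0.072), INSIG2 (-0.61 to 0.36), SQLE (-1.10 to 0.099) and HMGCS1 (-0.92 to 0.40), where a lone lactation library is taken to vary like the rest. Depth limited little here, and the number of libraries, 1 per stage, limits the precision.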
